A study of Mus musculus with 9 samples.

Results

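The 10 genes described here encode the interleukin-1 (IL-1) cytokines, their natural inhibitors and the proteins of the inflammasome: Il1b, Il1a, Il18, Il1rn, Il1r2, Nlrp3, Pycard, Casp1, Casp4 and Gsdmd. They were chosen by symbol, for their place in this pathway, from the 20926 genes of a blood RNA-seq table, and all 10 were found in it. The table held 9 libraries from male DBA/1 mice, 3 per group. The labels give an age of 7 weeks, which in the methods is the age at the division into groups, ahead of irradiation. The age at blood sampling is not given in the sources used here. Ctrl mice were neither arthritic nor irradiated, CIA mice had collagen-induced arthritis and were not irradiated, and CIA+THz mice had the same arthritis with the swollen ankle joints exposed to 0.1 THz radiation for 30 min a day over 14 days. According to the methods, mice were kept under isoflurane during the exposure, so that irradiation and repeated anaesthesia cannot be told apart unless the other mice were anaesthetised as well, which is not given in the sources used here. In the methods, the arthritis model is raised by immunisation with collagen in complete Freund's adjuvant and a booster in incomplete Freund's adjuvant. Whether Ctrl mice received adjuvant is not given in the sources used here. Arthritis and immunisation cannot be told apart in comparisons with Ctrl. The labels describe the sample as blood leukocyte while the extraction protocol speaks of total blood RNA.

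IL-1 beta and IL-18 are made as inactive precursors. In the canonical inflammasome a sensor such as NLRP3 gathers the adaptor ASC, the product of Pycard, which brings caspase-1 together. Active caspase-1 cleaves the cytokine precursors and gasdermin D, whose freed end forms pores in the cell membrane through which the cytokines leave. IL-1 alpha signals through the same receptor as IL-1 beta, the IL-1 receptor antagonist (Il1rn) occupies that receptor without signalling, and the decoy receptor (Il1r2) binds IL-1 and passes on no signal. Neutrophils and monocytes are the blood cells best known for this machinery, and IL-1 is a recognised driver of joint inflammation.

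Levels below are FPKM (read fragments per unit of transcript length, relative to a library's total), which can be compared between genes because they are per length. Each library was divided by 1 median-of-ratios factor, 0.847 to 1.24. Without this step the median gene was 0.29 higher on the log2 scale in CIA+THz than in CIA libraries and 0.33 higher than in Ctrl libraries, against 0.03 and 0.04 with it, so results are given relative to the median gene, and the deposited scale is quoted where it ends a call or turns a direction. Relative sequencing depth, read from the steps that whole fragments leave in low FPKM values, was 1.00 to 1.10 in Ctrl, 1.01 to 1.28 in CIA and 1.36 to 1.88 in CIA+THz libraries, as multiples of the Ctrl 1 library. Absolute depth is unknown. Alas2, the heme synthesis enzyme of red cell precursors, took 14.4 to 16.6% of the summed FPKM in Ctrl, 16.3 to 16.7% in CIA and 11.4 to 14.0% in CIA+THz libraries, and the part of depth and of red cell RNA in the results below was not tested.

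By mean level over the 9 libraries, Il1b was the highest of the 10 genes, at 336.5 rescaled FPKM and above 98.7% of the 14453 genes with a value above 0 in any library. Il1rn followed at 87.7 and Casp4 at 38.2. Nlrp3, Casp1 and Pycard lay together, at 22.0, 21.8 and 21.8, and their libraries overlapped. Il1r2 (13.4) and Gsdmd (8.40) were lower, and Il1a (0.847) and Il18 (0.792) were near the low end, where values scattered most. The plot of levels by library shows each of them.

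**Figure D1:**
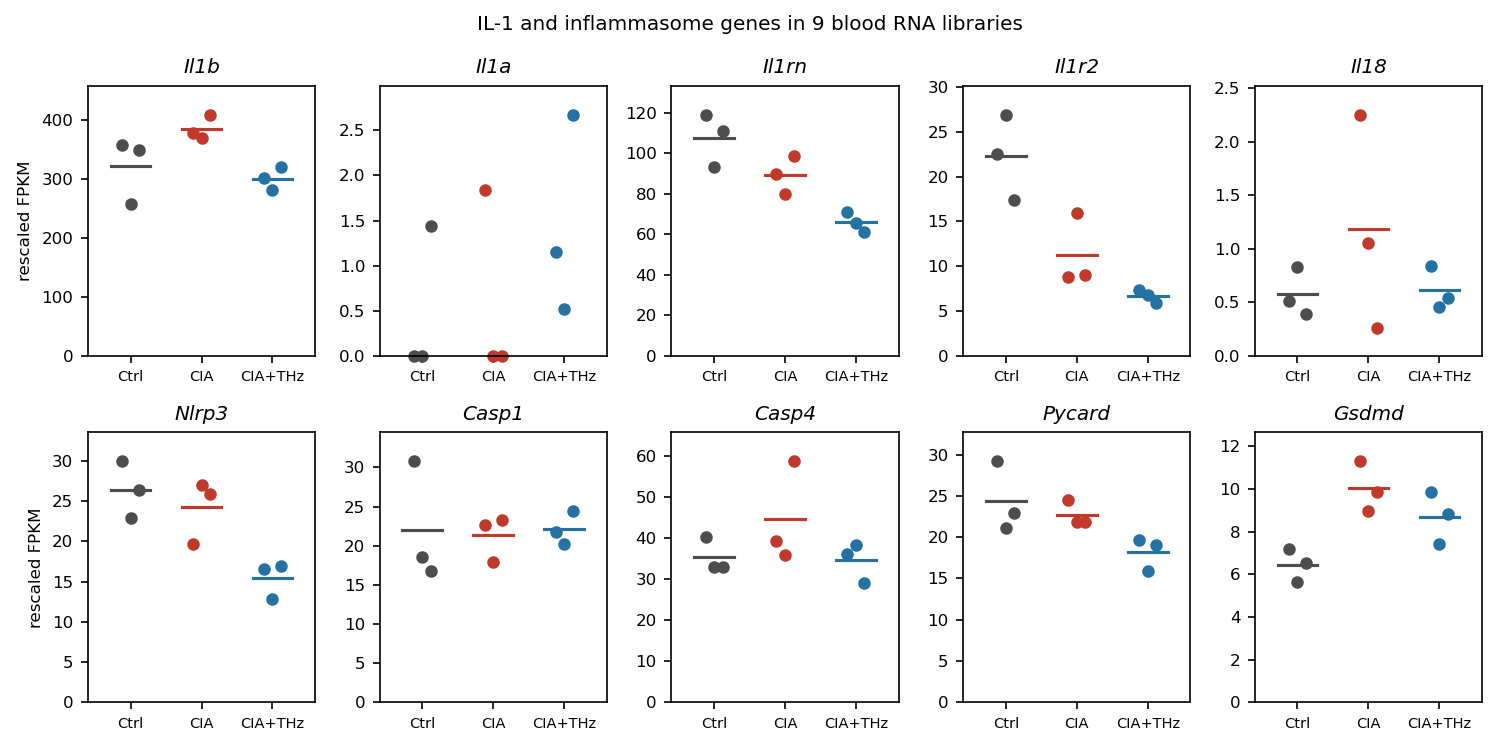
Rescaled FPKM (vertical axes, each starting at 0) of the 10 genes in the 3 Ctrl, 3 CIA and 3 CIA+THz libraries. Points are libraries and bars are group means, with no bar for Il1a because it is listed at 0 in 4 libraries. Il1r2 runs from 17.4 to 26.9 in Ctrl down to 5.91 to 7.34 in CIA+THz libraries, and Gsdmd is higher in every CIA library than in every Ctrl library.

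In GENCODE annotation of mm10 (GRCm38), Il1b (ENSMUSG00000027398) lies on chr2:129364570-129371139 and Il1a (ENSMUSG00000027399) 54597 bases away on chr2:129299610-129309972, both on the reverse strand. Il1rn (ENSMUSG00000026981) is on the same chromosome at chr2:24336853-24351494, and Il1r2 (ENSMUSG00000026073) is at chr1:40074079-40125231. Casp1 (chr9:5298517-5307265) and Casp4 (chr9:5308828-5336783) are neighbours with 1562 bases between them. Nlrp3 is at chr11:59541568-59566956, Pycard at chr7:127989708-127993867, Il18 at chr9:50554827-50581840 and Gsdmd at chr15:75862327-75867408. The spans of Il1b, Il1a, Il1r2, Il18 and Pycard overlap those of other annotated genes, such as the antisense Il1bos. Reads from sequence that both genes transcribe cannot be told apart, because the library kit does not mark the strand. For Il1r2, Gm37347 also lies on the same strand. Whether exons overlap was not examined. The other 5 genes overlap no annotated gene.

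Promoters are shown for Il1b, for both inhibitors and for Nlrp3, the genes whose levels the comparisons below turn on, so that their start regions can be set side by side. Each is the 250 bases before a RefSeq transcript start of the GRCm38.p6 reference, which is not the DBA/1 strain, at the RefSeq start nearest to the GENCODE gene start. That start is 12014 bases inside the GENCODE gene for Il1r2. Capitals mark matches to 4 short motifs searched on both strands: the TATA box (TATAAA), the PU.1 core (GAGGAA), C/EBP (TTGCNNAA) and NF-kB (GGGNNNNNCC).
Il1b, chr2:129371140-129371389, reverse strand: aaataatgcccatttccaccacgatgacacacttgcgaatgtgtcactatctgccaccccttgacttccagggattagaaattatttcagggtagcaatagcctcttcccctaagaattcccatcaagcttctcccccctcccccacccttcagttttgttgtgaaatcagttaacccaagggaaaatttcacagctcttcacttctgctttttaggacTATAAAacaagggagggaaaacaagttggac
Il1rn, chr2:24336610-24336859, forward strand: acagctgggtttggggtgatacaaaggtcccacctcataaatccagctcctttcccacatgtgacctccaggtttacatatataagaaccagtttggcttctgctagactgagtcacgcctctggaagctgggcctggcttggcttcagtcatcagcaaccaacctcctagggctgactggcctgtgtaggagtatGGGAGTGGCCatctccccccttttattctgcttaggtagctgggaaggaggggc
Il1r2, chr1:40085843-40086092, forward strand: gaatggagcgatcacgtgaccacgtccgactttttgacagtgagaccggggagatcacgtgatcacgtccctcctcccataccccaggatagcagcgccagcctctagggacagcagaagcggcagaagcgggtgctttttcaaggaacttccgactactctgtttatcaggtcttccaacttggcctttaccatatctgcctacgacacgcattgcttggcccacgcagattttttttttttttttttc
Nlrp3, chr11:59541319-59541568, forward strand: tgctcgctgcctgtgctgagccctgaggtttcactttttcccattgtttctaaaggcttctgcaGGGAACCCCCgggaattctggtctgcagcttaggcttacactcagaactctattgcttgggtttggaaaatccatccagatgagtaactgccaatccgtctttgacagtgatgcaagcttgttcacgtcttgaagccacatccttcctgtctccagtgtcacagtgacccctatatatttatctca
The Il1b window held a TATA box at position -31 from the start, a motif in 12.3% of the 32536 RefSeq promoters searched. Windows not printed held it for Il1a at -32 and, on the other strand, for Il18 at -175. The Il1rn window held an NF-kB match at -54, and the Nlrp3 window held a match at -186 that reads as NF-kB on both strands, a motif so loose that 46.0% of promoters hold it. The Il1r2 window held none of the 4. PU.1 core matches, present in 23.4% of promoters, were found for Il1a at -41, Pycard at -42 and Casp1 at -108, and the Pycard window also held the C/EBP motif (9.57% of promoters). The second RefSeq start of Nlrp3, not printed, held PU.1 core matches at -220, -129 and -36. The Casp4 window held 6 NF-kB matches on the 2 strands, 4 of them overlapping each other with starts between -93 and -91, and others at -39 and -14. Of the 10 genes, 9 had an entry in the promoter table. These matches describe letters and not bound sites.

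The genes were first compared across the 3 groups. With limma's moderated F-test over 12366 genes, 5 of the 10 had an unadjusted p under 0.05, where 21.3% of all genes did: Il1r2, Il1rn, Nlrp3, Gsdmd and Pycard. Il1r2 (adjusted p = 0.0170) and Il1rn (adjusted p = 0.0373) kept a Benjamini-Hochberg adjusted p under 0.05, where 2.53% of all genes did. Nlrp3 was next, with an adjusted p = 0.0635 by limma. On the deposited scale 2 of the 10 had p under 0.05, where 26.7% of all genes (3307) did. Il1b (adjusted p = 0.256), Casp4 (0.435), Il1a (0.418), Il18 (0.775) and Casp1 (0.980) did not pass either threshold in limma's F-test. Between pairs of groups, a gene is said to rise or fall below where limma gave an unadjusted p under 0.05 and a log2 fold change beyond 0.67 in size, the study's criterion. The 3 pairs share libraries and are not independent of each other. The labels number the libraries of a group without saying how the animals were sampled, and p-values measure the spread between these libraries.

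The comparison of CIA with Ctrl sets mice with arthritis, immunised with collagen in adjuvant, beside mice without arthritis. The decoy receptor Il1r2 fell in CIA blood, to 0.507 of its Ctrl mean, Gsdmd stood at 1.56 times its Ctrl mean without passing the criterion, and Il1b, Nlrp3, Pycard and Casp1 had means within 0.917 to 1.20 times Ctrl. Of the 10 genes, 1 fell and 0 rose. Among all genes tested 4.25% fell and 4.79% rose, and 0.154% had an adjusted p under 0.05, with 0 of these 10 among them. The median log2 fold change of the 10 was 0.05, against -0.01 over all genes.

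Il1r2 measured 22.5, 26.9 and 17.4 rescaled FPKM in the Ctrl libraries and 8.82, 16.0 and 9.07 in the CIA libraries. No CIA library reached the lowest Ctrl library, though CIA 2 came close to it. The mean decreased by 49.3%, a log2 fold change of -1.01 (SE 0.27, n = 3 per group, Benjamini-Hochberg adjusted p = 0.152 by limma). The fall was called on the deposited scale as well and in each of the 6 fits that left out 1 library.

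Il1rn, the soluble antagonist, measured 118.9, 93.4 and 110.9 in Ctrl and 89.9, 79.8 and 98.7 in CIA libraries. The groups overlapped, with a log2 fold change of -0.27 (SE 0.14, adjusted p = 0.360 by limma). Il1b encodes the ligand that both inhibitors counter. It read 358.9, 258.5 and 350.0 in Ctrl and 378.8, 369.9 and 409.4 in CIA libraries. Every CIA library was above every Ctrl library, but Ctrl 2 was low, the interval of the log2 fold change of 0.27 ran from -0.09 to 0.64 at 95% and on the deposited scale the groups overlapped.

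Gsdmd, which forms the pore, measured 7.18, 5.63 and 6.52 in Ctrl and 11.3, 8.96 and 9.88 in CIA libraries. All CIA libraries were higher, and the mean was 55.9% higher, but the log2 fold change of 0.63 (SE 0.18, adjusted p = 0.161 by limma) missed the fold criterion. Without the Ctrl 1 or the CIA 2 library Gsdmd passed it, and the count of members past it then became 2. Across the 10 genes, 2 (Il1b and Gsdmd) had CIA libraries all above Ctrl and 1 (Il1r2) all below, where 11.8% of all genes were above and 11.8% below.

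The remaining inflammasome genes overlapped between Ctrl and CIA. Nlrp3 read 29.9, 22.9 and 26.4 in Ctrl and 19.7, 27.0 and 25.9 in CIA libraries. Its log2 fold change was -0.13, with an interval from -0.53 to 0.27. Pycard, the adaptor, had a log2 fold change of -0.09 (interval -0.45 to 0.27) and Casp1, the protease, -0.0037 (interval -0.58 to 0.57, at 0.03 on the deposited scale). Casp4, which senses bacterial lipopolysaccharide inside cells, was 0.30 (interval -0.17 to 0.78) with CIA 3 at 58.8 and the other CIA libraries at 39.3 and 35.8. The low cytokine genes gave little information: Il18 ran from 0.388 to 0.832 in Ctrl and from 0.260 to 2.25 in CIA libraries. Il1a was listed at 0 in Ctrl 1, Ctrl 2, CIA 2 and CIA 3 and read 1.44 in Ctrl 3 and 1.84 in CIA 1.

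CIA+THz against CIA is the comparison of irradiated with untreated arthritis. In CIA+THz blood Il1r2 fell to 0.590 of its CIA mean, and Il1b, Il1rn, Nlrp3 and Pycard read lower in each library than in any CIA library, by amounts under the fold criterion. This pattern holds relative to the median gene and not on the deposited scale, where each of the 5 overlapped between the groups and none was called. Of the 10 genes, 1 fell and 0 rose, where 1.6% of all genes fell and 2.94% rose. The 5 genes without overlap were all below CIA and 0 were above, where 10.2% of all genes were below and 9.38% above. Such shares below CIA were not particular to the members among the marker lists described below. They were 5 of 10 mature neutrophil, 4 of 8 classical monocyte, 4 of 6 platelet and 4 of 10 ubiquitous genes, while 5 of 8 T cell markers were above. By Benjamini-Hochberg, 0 of the 12366 genes (0%) had an adjusted p under 0.05, and 1634 had an unadjusted p under 0.05. On the deposited scale 1192 genes passed the criterion in place of 561, with 1126 higher (9.11%) and 66 lower (0.534%) in place of 363 and 198. The median log2 fold change of the 10 members was -0.35, against 0.03 over all genes, and -0.07 against 0.29 on the deposited scale.

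**Figure D2:**
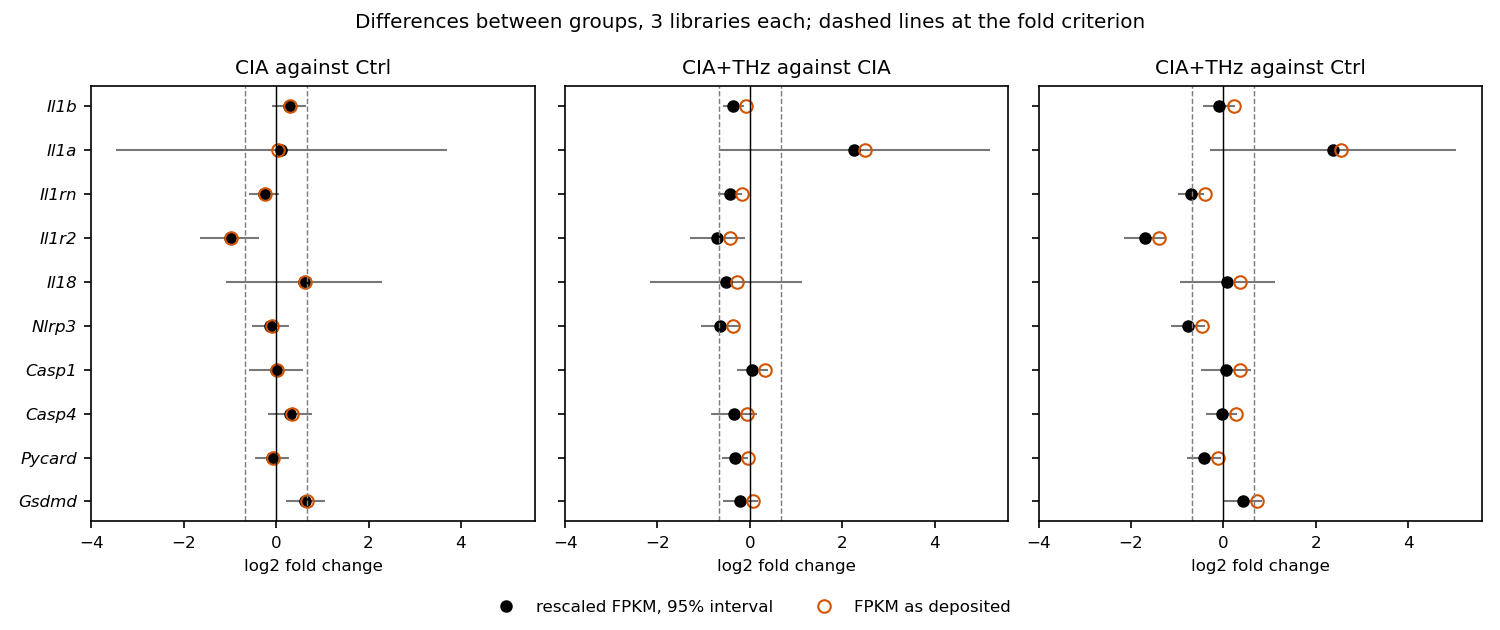
Log2 fold changes (horizontal axes) of the 10 genes in the 3 comparisons of 3 libraries each. Filled points and lines are rescaled FPKM with 95% intervals from limma, open points are FPKM as deposited, and dashed lines mark 0.67 on either side. In CIA+THz against CIA, Il1r2 moves from -0.70 to -0.43 and Il1b from -0.36 to -0.08 with the deposited scale, and Gsdmd turns from -0.21 to 0.07.

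Among the ligands, Il1b measured 301.6, 281.2 and 320.2 in the CIA+THz libraries. These lay below all 3 CIA libraries and inside the range of Ctrl. The mean differed from CIA by -22.0%, a log2 fold change of -0.36 (SE 0.09, adjusted p = 0.239 by limma), and -0.08 on the deposited scale.

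Both inhibitors read lower than in CIA on the rescaled values. Il1rn measured 70.9, 65.7 and 61.3 in the CIA+THz libraries, a log2 fold change from CIA of -0.44 (SE 0.11, adjusted p = 0.235 by limma), and -0.16 on the deposited scale. Il1r2 measured 7.34, 6.74 and 5.91, a log2 fold change of -0.70 (SE 0.25, adjusted p = 0.319 by limma). All CIA+THz libraries lay below the lowest CIA library. The call on Il1r2 was lost on the deposited scale (-0.43), with a pseudocount of 1 (-0.64) and without the CIA 2, CIA+THz 2 or CIA+THz 3 library, and with 1 library left out the log2 fold change ran from -0.85 to -0.42.

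Nlrp3, the sensor, measured 16.6, 12.8 and 17.0 in the CIA+THz libraries against the 19.7 to 27.0 of CIA. The groups did not overlap, and the log2 fold change of -0.64 (SE 0.17, adjusted p = 0.249 by limma) was just under the criterion. It passed when CIA 1, CIA+THz 1 or CIA+THz 3 was left out, and it was -0.36 on the deposited scale. Pycard measured 19.7, 15.9 and 19.0 against 24.5, 21.8 and 21.9 in CIA, with a log2 fold change of -0.32 (SE 0.12, adjusted p = 0.338 by limma), and -0.05 on the deposited scale.

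The effector genes overlapped between CIA and CIA+THz. Casp1 read 21.8, 20.2 and 24.4 in the CIA+THz libraries, a log2 fold change of 0.06 (interval -0.27 to 0.39) and 0.33 on the deposited scale. Casp4 was -0.34 (interval -0.83 to 0.15). Gsdmd read 9.87, 7.40 and 8.85, a log2 fold change of -0.21 (interval -0.59 to 0.18), and 0.07 on the deposited scale. Il1a was above 0 in all 3 CIA+THz libraries, at 1.15, 0.519 and 2.67, and its log2 fold change of 2.26 depended on the pseudocount and had an interval from -0.67 to 5.20. It passed the criterion without the CIA 1 library, and Il18 (-0.51, interval -2.16 to 1.13) passed it without CIA 3 and turned to 0.11 without CIA 1.

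CIA+THz against Ctrl sets irradiated arthritic mice beside mice without arthritis. Of the 10 genes, 3 fell and 0 rose, where 3.24% of all genes fell and 4.64% rose. Il1r2 had a log2 fold change of -1.71 (SE 0.19), a mean that decreased by 70.1%, and was the 1 member with an adjusted p under 0.05 (adjusted p = 0.0330 by limma), where 0.105% of all genes had one. Il1rn was -0.70 (SE 0.12, adjusted p = 0.0779 by limma) and Nlrp3 -0.77 (SE 0.16, adjusted p = 0.102). On the deposited scale Il1r2 still fell (-1.40), while Il1rn (-0.40) and Nlrp3 (-0.46) did not pass and Gsdmd (0.73) rose, where 0.97% of all genes fell and 12.9% rose. The fall of Il1rn was lost without Ctrl 1 or CIA+THz 3 and that of Nlrp3 without CIA+THz 2. Of the 10 mature neutrophil markers, 9 had lower means in CIA+THz than in Ctrl and 3 fell, with a median log2 fold change of -0.58. On the deposited scale 7 of the 10 were lower and 2 fell, with a median of -0.28. Measured against that list within each library, Il1rn differed by -0.15 and Nlrp3 by -0.22, both with overlapping groups, and Il1r2 by -1.16 without overlap. Lower medians were not particular to the neutrophil list among the marker lists described below. All 7 red cell precursor genes had lower means and 4 fell, with a median of -0.69 (-0.38 on the deposited scale). Platelet and NK cell medians were -0.25 and -0.41 (0.06 and -0.10 on the deposited scale). The B cell (0.55), patrolling monocyte (0.82) and neutrophil precursor granule (1.17) medians were higher, and those of T cell and ubiquitous genes were 0.04. The classical monocyte list also went the other way, with a median log2 fold change of 0.58. Against it Il1rn differed by -1.27, Nlrp3 by -1.34 and Il1r2 by -2.28, each without overlap.

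In this pair 4 genes, Il1r2, Il1rn, Nlrp3 and Pycard, had CIA+THz libraries all below Ctrl, where 12% of all genes did, and 1, Gsdmd, had them all above, where 11.9% did. Gsdmd was 35.2% higher by mean, a log2 fold change of 0.43 (SE 0.18, adjusted p = 0.264 by limma). Pycard was -0.42 (SE 0.16, adjusted p = 0.234 by limma) and -0.11 on the deposited scale. Il1b was -0.09 (interval -0.43 to 0.26) and 0.22 on the deposited scale. Casp1 (0.05), Casp4 (-0.04, and 0.27 on the deposited scale) and Il18 (0.09) had intervals that included 0, and so did Il1a, which passed without Ctrl 3.

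Ratios formed within a library do not depend on the scaling between libraries. The log2 ratio of Il1rn to Il1b, antagonist to ligand, was -1.59, -1.47 and -1.66 in Ctrl, -2.07, -2.21 and -2.05 in CIA and -2.09, -2.10 and -2.38 in CIA+THz libraries. Both arthritic groups lay below Ctrl without overlap and overlapped each other. The difference was -0.54 for CIA against Ctrl, -0.08 for CIA+THz against CIA and -0.62 for CIA+THz against Ctrl, with exact permutation p of 0.1, 0.5 and 0.1 (two-sided). With 3 against 3 libraries 0.1 is the smallest p this test allows, and 0.25 was the smallest after Benjamini-Hochberg adjustment over the 15 ratio comparisons.

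Il1r2 to Il1b, decoy to ligand, showed the same order. The ratio was -3.99, -3.26 and -4.33 in Ctrl, -5.41, -4.52 and -5.48 in CIA and -5.34, -5.36 and -5.74 in CIA+THz libraries. It differed by -1.28 between CIA and Ctrl (exact p = 0.1) and by -0.34 between CIA+THz and CIA (exact p = 0.6, groups overlapping). The ratio of Il1b to Il18 differed by -0.33, 0.16 and -0.17 in the 3 comparisons, with exact permutation p of 0.8, 0.9 and 0.7, and its direction depended on single libraries.

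**Figure D3:**
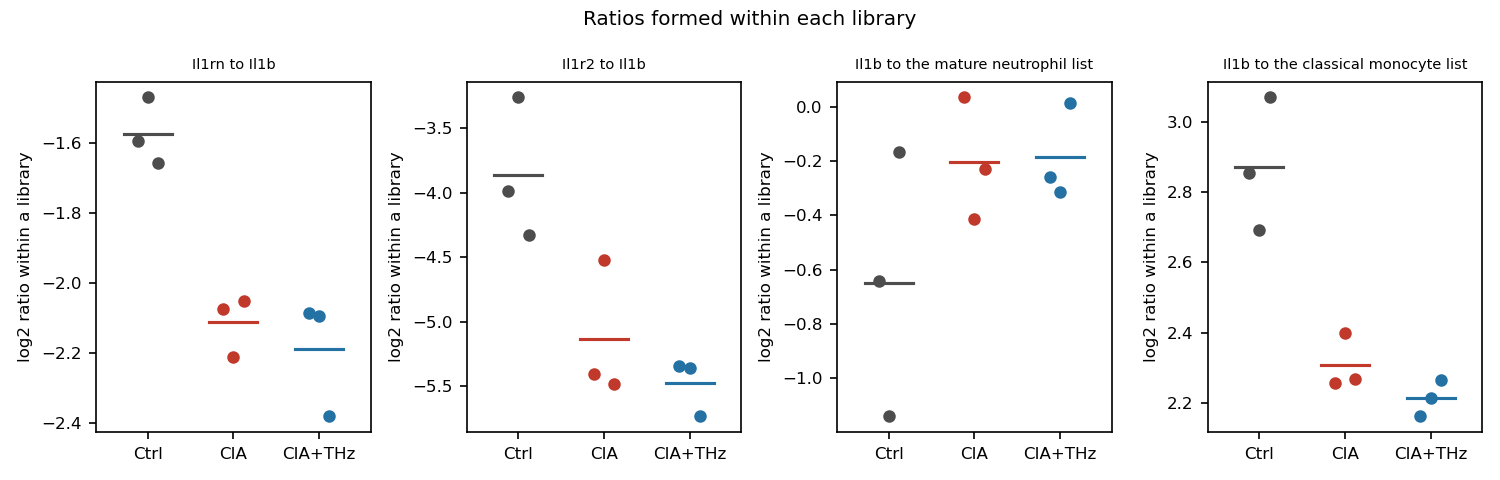
Log2 ratios formed within each library (vertical axes, ranges differ between panels) for Il1rn to Il1b, Il1r2 to Il1b, and Il1b to the mean log2 level of the mature neutrophil and classical monocyte lists. Points are libraries and bars are means of 3. The first, second and last ratios are lower in every CIA library than in every Ctrl library, while CIA and CIA+THz libraries overlap in all 4 panels.

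Blood RNA mixes cell types, and fewer cells of a type and less RNA per cell cannot be told apart in it. The 10 mature neutrophil markers (Csf3r, Cxcr2, S100a8 and others) summed to 13588 to 22198 rescaled FPKM in Ctrl, 15302 to 19726 in CIA and 11514 to 12980 in CIA+THz libraries, with 0 markers at 0 throughout. In CIA+THz against CIA all 10 had lower means and 1 fell, with a median log2 fold change of -0.38. On the deposited scale the median was -0.10, 7 of 10 were lower and 0 fell. Measured against this list within each library, Il1b differed by 0.02 between CIA+THz and CIA (exact permutation p = 1.0), Il1rn by -0.06, Pycard by 0.05, Nlrp3 by -0.26 and Il1r2 by -0.32, and in each case the groups overlapped. In CIA against Ctrl the list's median was -0.11 and 1 of 10 fell, and against it Il1r2 differed by -0.83 and Gsdmd by 0.81 on the log2 scale, both without overlap.

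The 8 classical monocyte markers (Csf1r, Ccr2, Ly6c2 and others) read higher in CIA than in Ctrl. They summed to 727 to 833 in Ctrl, 1035 to 1173 in CIA and 851 to 952 in CIA+THz libraries, with 0 markers at 0. In CIA against Ctrl all 8 had higher means and 3 rose, with a median log2 fold change of 0.54. Against this list Il1b differed by -0.56 between CIA and Ctrl (exact permutation p = 0.1, no overlap), Il1r2 by -1.84 without overlap and Gsdmd by -0.20 with overlap. Il1rn (-1.10), Nlrp3 (-0.97), Pycard (-0.93), Casp1 (-0.84) and Casp4 (-0.53) were also lower against it without overlap, while Il1a and Il18 overlapped. In CIA+THz against CIA 7 of 8 markers had lower means and 0 fell, with a median of -0.25 (0.03 on the deposited scale, with 4 of 8 lower), and Il1b to the list differed by -0.09 (exact p = 0.2). In that pair Il1rn (-0.17) and Casp1 (0.32) differed against the list without overlap, and the other members overlapped.

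T cell, B cell and NK cell markers took other directions. The 8 T cell markers had a median of -0.28 in CIA against Ctrl and 0.35 in CIA+THz against CIA, where 1 rose, the 7 B cell markers 0.22 and 0.24, and the 5 NK cell markers tested -0.99 and 0.59, where 3 fell and 1 rose; Klra8, the remaining NK marker, was listed at 0 in all libraries. Medians of the 10 ubiquitous genes were 0.13 and -0.13, and of the 7 red cell precursor genes -0.69 and -0.02, where the second value of each turned to 0.15 and 0.25 on the deposited scale. Platelet markers stood at 0.13 and -0.49, the 6 patrolling monocyte markers at 0.40 and 0.32, and the 7 genes of neutrophil precursor granules at 1.75 and -0.43, with 3 of the 7 rising in CIA and 3 falling in CIA+THz and with Mpo listed at 0 in the Ctrl libraries. The part of these lists in the members' values was not tested. Of the ratios to the lists above, only those of Il1b carry a permutation p, and the others are descriptive.

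**Figure D4:**
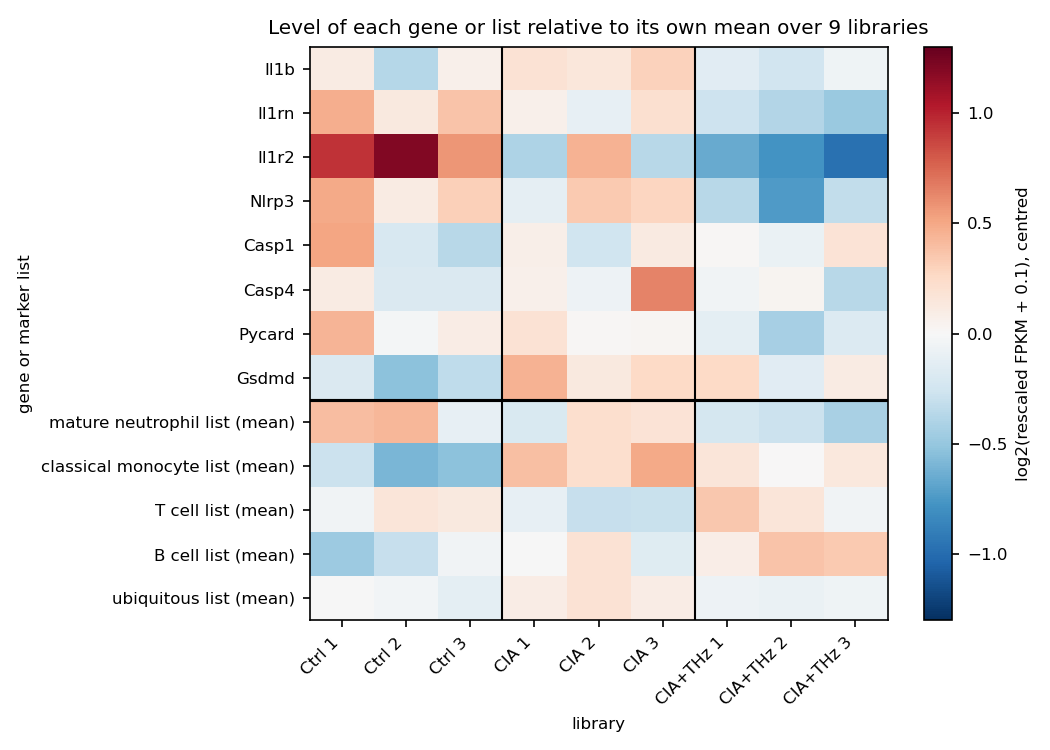
Log2(rescaled FPKM + 0.1) in the 9 libraries (columns), each row centred on its own mean, for 8 of the 10 genes (above the line) and the means of 5 marker lists (below it). Red is above and blue below the mean of the row, and Il1a and Il18 are left out for their low values. Il1r2 spans 1.20 in Ctrl 2 to -0.97 in CIA+THz 3, the widest range of the 8 genes shown on this scale.

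The wider pathway held 51 listed genes, of which 47 were in the table and 43 were tested. In CIA against Ctrl 3 of the 43 rose and 1 fell, where 4.79% of all genes rose and 4.25% fell. Il1rap, the accessory protein that the IL-1 receptor needs to signal, fell: the Ctrl libraries read 31.3, 28.4 and 22.4 and the CIA libraries 12.8, 14.7 and 16.5, without overlap (log2 fold change -0.89, SE 0.17, limma adjusted p = 0.0754). Gbp2, an interferon-induced GTPase, rose by 0.84 on the log2 scale (SE 0.18, adjusted p = 0.0969 by limma), Mefv, which encodes the sensor pyrin, by 0.69 (SE 0.18), and P2rx7, the ATP-gated channel that triggers NLRP3, by 1.14 (SE 0.40).

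In CIA+THz against CIA 1 of the 43 rose and 0 fell, where 2.94% of all genes rose and 1.6% fell. On the deposited scale 5 rose and 0 fell, where 9.11% of all genes rose and 0.534% fell. The riser on the rescaled values was Nlrc4, a sensor adaptor for bacterial flagellin, at a low level of 0.529, 0.405 and 0.474 in CIA and 0.969, 1.35 and 0.673 in CIA+THz libraries (log2 fold change 0.91, SE 0.36, limma adjusted p = 0.359). Il1rap read 22.4, 22.3 and 16.7 in CIA+THz libraries, above every CIA library, with a log2 fold change of 0.47 (SE 0.16, adjusted p = 0.306 by limma) that missed the fold criterion and was 0.74 and past it on the deposited scale. In CIA+THz against Ctrl 1 rose, Gbp2 by 0.80 (SE 0.24), and 0 fell, where 4.64% of all genes rose and 3.24% fell. On the deposited scale 8 rose and 0 fell, where 12.9% of all genes rose and 0.97% fell. The list's median log2 fold changes were 0.01, -0.01 and 0.01 in the 3 comparisons, against -0.01, 0.03 and 0.04 over all genes, and on the deposited scale they were 0.04, 0.27 and 0.29.

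Over the 9 libraries, the smallest root mean square difference between the centred log2 values of 2 members was 0.18, for Il1rn and Pycard, whose own spreads were 0.31 and 0.23. Il1b and Pycard differed by 0.20, about as much as their own spreads of 0.21 and 0.23. Il1rn and Nlrp3 differed by 0.21, against own spreads of 0.31 and 0.38. Il1r2 was the 1 member past the criterion in CIA against Ctrl or CIA+THz against CIA. The genes with the nearest pattern to it, of 9747 compared, were A530032D15Rik (0.26), Rdh12 (0.26), a retinol dehydrogenase, and Fpr1 (0.29), the formyl peptide receptor of phagocytes, where Il1r2's own spread was 0.75. Fpr1 read 162.0, 176.6 and 106.2 in Ctrl, 61.1, 82.3 and 75.9 in CIA and 67.2, 64.1 and 57.9 in CIA+THz libraries.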

How the data were processed

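The 9 blood RNA libraries were prepared with a TruSeq v2 kit and read from both ends. The authors deposited FPKM values per gene symbol, 1 column per library; the submitters' processing notes name bcl2fastq 2.0, HISAT2, StringTie, DESeq2 and the build mm10, without roles, and filters are not given in the sources used here. Groups came from the sample labels. The 10 members and all gene lists were chosen with earlier results of these data known.

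FPKM columns were divided by median-of-ratios factors over the 10312 genes above 0 in all libraries, and log2(rescaled FPKM + 0.1) was tested for the 12366 genes with a mean of at least 0.1 in limma 3.58.1 (eBayes with a trend) under R 4.3.3. Fold changes are on that scale, which understates changes of low genes. The F-test used 9 libraries and each pair of groups its own 6, with Benjamini-Hochberg adjustment over all genes. The scripts were tested on simulated data. Ratios used exact permutation tests (scipy 1.17.1). All 10 members are named throughout. Of the wider list, up to 6 genes with the smallest p past the criterion are named, and for members past it in CIA against Ctrl or CIA+THz against CIA the 3 genes of nearest pattern with a mean of at least 1. The alternatives tried were the deposited scale, 75th percentile scaling, other pseudocounts, filters and fits, and leaving out each library. Member levels within a library relative to the marker lists were added after seeing the data. Intervals cover the spread between libraries only.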

Additional observations from a re-analysis of the deposited data

How the results depend on the processing

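With adjusted p in place of p, the genes passing were 313 across the groups and 19, 0 and 13 in the 3 pairs (CIA with Ctrl, CIA+THz with CIA, CIA+THz with Ctrl), in place of 2629, 1118, 561 and 975, and members passing were 2, 0, 0 and 1 in place of 5, 1, 1 and 3. The deposited scale gave 1192 and 1716 genes (1596 higher and 120 lower) in the last 2 pairs, 3307 genes and 2 members across the groups, and 0 members in CIA+THz against CIA. A pseudocount of 1 gave 283 genes and 0 members in CIA+THz against CIA and turned the log2 ratio of Il1b to Il18 there to -0.016. The cause was not tested. The deposited scale turned the log2 fold change of Casp1 in CIA against Ctrl (0.026, and 0.00058 with 75th percentile scaling), Casp4 (0.27) and Il1b (0.22) in CIA+THz against Ctrl, and Gsdmd in CIA+THz against CIA (0.068). With 75th percentile scaling Il1rn in CIA+THz against Ctrl was -0.67, just inside the fold criterion.

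Leaving out 1 library gave 724 to 1487 genes in CIA+THz against Ctrl (1487 without Ctrl 3), 1 to 2 members in CIA against Ctrl and 0 to 3 in CIA+THz against CIA (0 without CIA 2 or CIA+THz 2). The ratio of Il1b to Il18 ran from -1.10 to 0.31 (positive without CIA 1), -0.48 to 0.93 and -0.58 to 0.10 in the 3 pairs, Il1b to the neutrophil list from -0.088 to 0.14 and Il1rn to Il1b from -0.13 to 0.020 in CIA+THz against CIA. Casp1 ran from -0.17 to 0.26, -0.061 to 0.13 and -0.12 to 0.32 in the 3 pairs, Il18 from -0.022 to 1.33, -1.25 to 0.11 and -0.13 to 0.34, Casp4 from -0.12 to 0.081 in CIA+THz against Ctrl, and in CIA against Ctrl Il1a from -1.32 to 1.43, Nlrp3 from -0.23 to 0.013 and Pycard from -0.19 to 0.042.

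Same-numbered libraries did not deviate together (correlations of -0.052 to 0.031), so no pairing was seen. The labels do not say how the animals were numbered, and this check cannot exclude a pairing. A fit with the replicate block called 2399, 1073, 506 and 967 genes and 5, 1, 1 and 4 members, the added member being Il1a in CIA+THz against Ctrl by limma. With absolute depth unknown, values near 0 such as those of Il1a and Il18 carry no counting interval.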
